A study of Drosophila melanogaster with 12 samples.

Results

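The comparison described here is the difference between irradiated Drosophila melanogaster embryos at stages 13 to 15 and irradiated embryos at stages 9 to 11. It was chosen by sample title: the 6 arrays whose titles name X-rays, out of 12 in the series, 3 from each stage window. Both groups were whole embryos labelled C-S, with total RNA taken 15 to 20 minutes after X-ray treatment, and every array measured 1 RNA sample in 1 colour. The titles call the earlier window sensitive and the later window resistant. The other 6 arrays held control embryos of the same label at the same stages, 3 per window, and serve as the background. No allele or agent beyond X-rays is named, and neither the dose nor the number of embryos in a sample is given in the sources used here. Nothing says that samples of 1 group came from separate collections, so the p-values here reflect sample-to-sample spread that may be technical.

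Between stages 9 to 11 and stages 13 to 15, a Drosophila embryo completes germ band extension, retracts the germ band, closes dorsally and begins to differentiate its organs. Most cells stop dividing during this span, muscle precursors fuse into fibres, and the early stripes of segmentation genes are refined or lost. Rates of amino acid, folate and lipid metabolism change as organs form and yolk is used. A measurement on whole embryos cannot tell fewer cells of a type from less RNA per cell.

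Each value is a deposited intensity, a probe set's brightness on a linear scale. Trimmed means were nearly equal on all arrays as deposited. Arrays differed by the number in their title, in both windows: the brightest gene probe set on the irradiated arrays read 22039 to 24401 on those numbered 1 and 2 and 11073 to 12532 on those numbered 3. For eIF-4a, an array control whose 5′ signal drops when RNA is degraded or labelled short, the 5′ to 3′ ratio ran from 0.0413 to 0.0578 on irradiated arrays numbered 1 and 2, and was 0.198 and 0.20 on those numbered 3. Each number holds 1 irradiated array of each window, so differences within a number are given beside the leading results. The main fit has no term for the array number. A fit with the number as a block, called the replicate block, was 1 of the alternatives. Across tested probe sets, Spearman correlations were 0.847 to 0.884 between irradiated arrays of 1 window and 0.662 to 0.729 between windows.

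The embryos of the later window differed from those of the earlier window at many probe sets. Of 10139 tested probe sets, 2390 (23.6%) had an adjusted p under 0.05 in limma, with 1217 (12%) higher at stages 13 to 15 and 1173 (11.6%) lower. A difference of at least 2-fold was reached by 964 of the higher and 724 of the lower ones, at least 4-fold by 301 and 122, and at least 8-fold by 39 and 19. Past 16-fold the order turned, with 6 higher and 8 lower, and past 32-fold 0 were higher and 6 lower. The median log2 difference was 1.47 among the higher calls, −1.14 among the lower calls and −0.02 over all tested probe sets. These folds are on the log2(intensity + 13.3) scale, which understates changes of weak probe sets. Values after ± are standard errors (SE) of the fit.

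**Figure D1:**
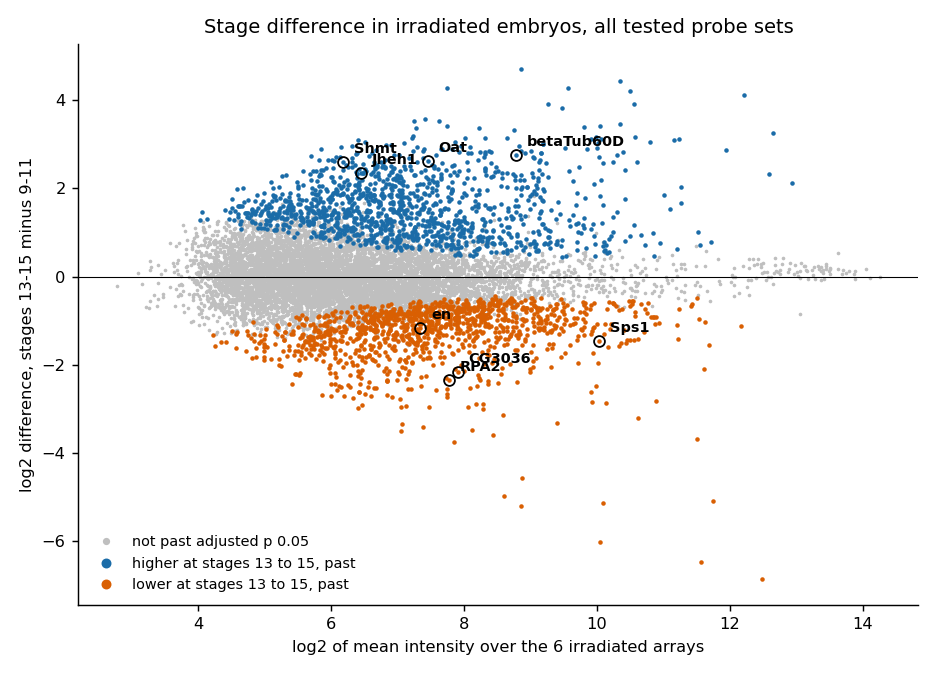
Each point is 1 of 10139 tested probe sets, with the log2 of its mean intensity over the 6 irradiated arrays on the x axis and its log2 stage difference (stages 13 to 15 minus 9 to 11) on the y axis. Blue points (1217) were higher and orange points (1173) lower past the adjusted threshold, and the circled genes are among those named in the text.

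The share of probe sets that passed grew with signal. Among the dimmest of 4 equal groups by mean intensity over all arrays, 154 of 2535 passed (6.07%), and among the brightest 1089 of 2535 (43.0%), of which 500 were higher and 589 lower. Among the dimmest the split was 109 higher and 45 lower. The values of the windows did not overlap for 1850 probe sets that were higher (18.2%) and 1996 that were lower (19.7%) at stages 13 to 15. The median SD of 3 arrays was 0.351 on the log2 scale at stages 9 to 11 and 0.316 at stages 13 to 15. Within each of the 3 array numbers the difference had 1 sign for 5568 tested probe sets (54.9%), and for 2377 of the 2390 that passed, a share their call nearly fixes.

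The tables used here give a gene name to 133 of 13966 gene probe sets, of which 109 (107 genes) were bright enough to test. The other 24 named probe sets, among them the immune genes Def and PGRP-SB1 and the germ line gene orb, read 0.7 to 51.7 on the irradiated arrays and were not tested. Of the 109 tested, 45 passed, 24 higher and 21 lower at stages 13 to 15. That share of 41.3% is above the 23.6% of all tested probe sets. Of the named probe sets, 50 lay in the brightest group, where 25 of those 50 passed against 43.0% of all. In the next group down 12 of 24 passed against 29.1% of all, and in the one below it 7 of 24 against 16.2%. In the dimmest group 1 of 11 passed against 6.07%. The named share was thus the higher one in each of the 4 groups, though in the dimmest it rests on 1 probe set. The list descriptions below give counts and medians. Their medians stand against −0.02 for all tested probe sets. The lists were written with earlier results of these data known, so their counts are descriptions and no independent support. Named probe sets passed more often than all, so a share of all tested probe sets is a low yardstick beside a list.

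The tested enzymes of the mitochondrial amino acid and one-carbon list were higher in the later window. All 7 tested members of that list, out of 22 listed, were higher at stages 13 to 15, with a median log2 difference of 1.98. Called in this direction were 12% of all tested probe sets and 24 of the 109 named ones, these 7 among them. The list was written with earlier results of these data known. Oat (151832_AT) encodes ornithine aminotransferase, which converts ornithine toward proline and glutamate. It read 36.5, 58.0 and 25.7 on the arrays of stages 9 to 11 and 279, 415 and 240.4 on those of stages 13 to 15. Every later value was well above every earlier one. The difference was 2.61 ± 0.30 on the log2 scale (adjusted p = 1.66e-05), and 2.55, 2.59 and 2.70 when taken within each number.

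Shmt (144561_AT), serine hydroxymethyltransferase, moves a carbon unit from serine to folate. It read 11.8, 9.0 and 11.3 in the earlier and 164, 121 and 117 in the later window, or 2.60 ± 0.28 apart in log2 (adjusted p = 1.03e-05). All 3 earlier values were below 29.9, the filter value, so the size of the rise depends on weak signal: it was 1.54 with 4 times the pseudocount. Nmdmc, a bifunctional folate enzyme of mitochondria that acts after Shmt, read 91.8, 112 and 65.2 and then 258, 191 and 123. It differed by 0.96 ± 0.30 (log2, SE, adjusted p = 0.0279), and the call ended without 1 array in 4 of 6 cases (earlier numbers 1 and 3, later numbers 1 and 2, adjusted p 0.0551 to 0.138). CG6415, the aminomethyltransferase of the glycine cleavage system, read 96.3, 72.4 and 121 and then 171, 315 and 218. Its values did not overlap (log2 difference 1.16 ± 0.30, adjusted p = 0.00944), though the call ended without later array 2 (adjusted p = 0.0568).

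The other members break down or interconvert amino acids. Got2, mitochondrial aspartate aminotransferase, read 142, 173 and 36.9 and then 475, 473 and 362 (1.98 ± 0.40 in log2, adjusted p = 0.00172). The earlier array numbered 3 stood apart, and the difference within numbers was 1.65, 1.38 and 2.90. CG17896 encodes a methylmalonate semialdehyde dehydrogenase of valine breakdown. It read 54.7, 24.1 and 92.6 and then 272, 261 and 241 (2.07 ± 0.31 in log2, adjusted p = 1.74e-04). The earlier arrays spread widely while the later ones lay close together. CG9547 encodes glutaryl-CoA dehydrogenase, of lysine and tryptophan breakdown. It read 15.5, 14.7 and 15.3 and then 129, 26.5 and 76.4 (log2 difference 1.49 ± 0.40, adjusted p = 0.0137). Its later array numbered 2 stayed below the filter value, and the call ended without later array 1 (adjusted p = 0.0849), without later array 3 (0.0525) or without all arrays numbered 3 (0.119).

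Several other metabolic genes outside that list were higher in the later window. Jheh1, a juvenile hormone epoxide hydrolase and the tested member of the juvenile hormone list, read 11.7, 9.1 and 48.4 and then 157, 152 and 149. It rose by 2.35 ± 0.34 in log2 (adjusted p = 1.36e-04). Within numbers the rise was 2.76, 2.89 and 1.39, the last of them beside the high earlier array numbered 3. Irp-1B, related to the iron-sulphur enzyme aconitase, read 10.5, 15.1 and 12.6 and then 108, 77.8 and 164 (log2 difference 2.27 ± 0.57, adjusted p = 0.00806). Its call ended without the arrays numbered 3 (adjusted p = 0.0779).

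Acat1, an acetyl-CoA acetyltransferase, read 91.5, 29.3 and 70.9 and then 153, 182 and 156 (log2 difference 1.29 ± 0.32, adjusted p = 0.00712). Taldo, transaldolase of the pentose phosphate pathway, read 128, 125 and 144 and then 359, 286 and 361. Its arrays agreed closely in each window (log2 difference 1.26 ± 0.19, adjusted p = 2.11e-04). PTPMT1, a phosphatase of mitochondria, differed by 1.12 ± 0.19 (SE, adjusted p = 5.53e-04). Pfas, an enzyme of purine synthesis, rose by 0.89 ± 0.27 (SE, adjusted p = 0.0279), a call that ended in 5 of 16 alternatives (adjusted p 0.0536 to 0.117), while Gart of the same pathway differed by 0.21 and did not pass (adjusted p = 0.738). Lsd-2, a perilipin that coats lipid droplets, read 133, 128 and 116 and then 293, 237 and 305. It was the 1 of 4 tested members of the gut and fat body list to pass (log2 difference 1.06 ± 0.26, adjusted p = 0.00704, list median 0.19). The other 3 are the peptide genes DptA, DptB and Dro, which the immune list holds too.

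Both tested members of the mesoderm and muscle list, of 28 listed, were higher at stages 13 to 15, with a median log2 difference of 2.24, beside the 12% of all tested probe sets called in this direction. betaTub60D (143391_I_AT), a beta-tubulin of developing muscle and sensory organs, had the largest rise among named genes. It read 97.0, 97.2 and 115 at stages 9 to 11 and 762, 809 and 763 at stages 13 to 15. The lowest later value was thus several times the highest earlier one, and the difference of 6.81-fold (log2 difference 2.77 ± 0.17, adjusted p = 8.20e-08) was 2.81, 2.90 and 2.59 within numbers. Strn-Mlck, a myosin light chain kinase, read 6.0, 5.8 and 3.9 and then 70.5, 20.0 and 68.2, so that later array 2 stayed below the filter value. It rose by 1.72 ± 0.45 in log2 (adjusted p = 0.0105), and the call ended without later array 1 (adjusted p = 0.0538), later array 3 (0.0540) or the arrays numbered 3 (0.126). Act79B, a muscle actin, read 375, 303 and 511 and then 764, 676 and 1079.8 (1.06 ± 0.25 in log2, adjusted p = 0.00571). The suffix of its probe set (143060_F_AT) marks a family of similar sequences, so other actin genes may contribute.

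Further genes that rose include Hsp83, the cytosolic chaperone of the Hsp90 family and the tested member of the heat shock list. It read 690.1, 824 and 874 and then 1629, 1415 and 1809.8 without overlap (1.01 ± 0.21 in log2, adjusted p = 0.00214). PKD, protein kinase D, rose by 1.39 ± 0.27 (SE, adjusted p = 0.00150). CG4199 differed by 1.46 ± 0.46 (SE, adjusted p = 0.0302), and its call ended without earlier array 2 (adjusted p = 0.118), earlier array 3 (0.0676), later array 2 (0.137) or the arrays numbered 3 (0.0585). Tep2, a thioester-containing protein, has 2 probe sets that disagree: 145970_AT rose by 0.97 ± 0.22 (SE, adjusted p = 0.00431), while 145971_at, below the filter value on 3 of 6 arrays, differed by −0.38 (adjusted p = 0.721).

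**Figure D2:**
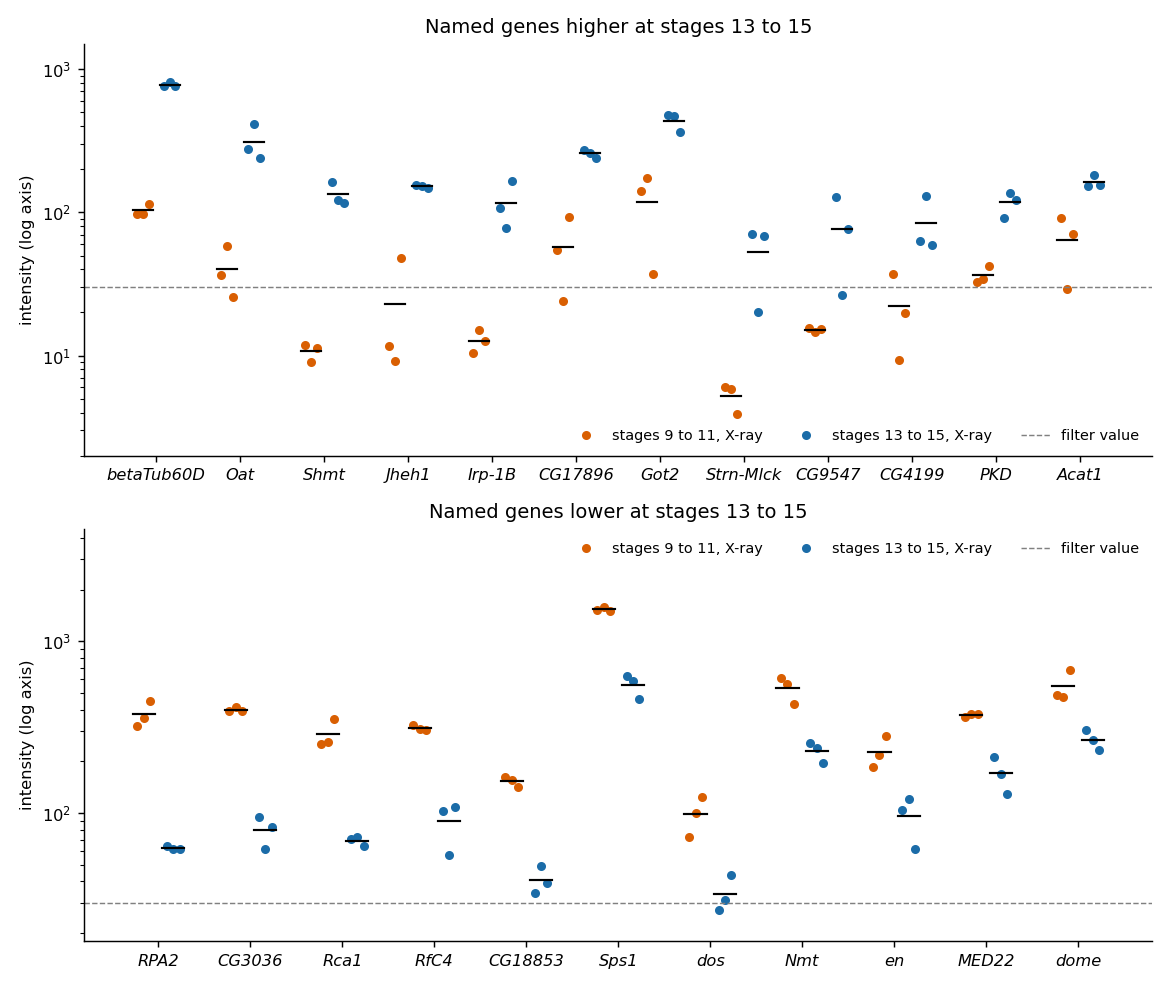
Intensity on a log axis for the 12 named genes with the largest rise (top) and 11 of the 12 with the largest fall (bottom) among those past the threshold with no overlap. Points are single irradiated arrays, black bars the mean of 3, and the dashed line the filter value of 29.9. In 6 of the 12 higher genes the mean at stages 9 to 11 lay below that line.

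The tested genes of the DNA replication and cell cycle list were lower at stages 13 to 15. The 3 tested members of that list, of 41 listed, all fell, with a median log2 difference of −1.86. Called in this direction were 11.6% of all tested probe sets and 21 of the 109 named ones, these 3 among them. RPA2 (153194_AT), a subunit of the complex that binds single-stranded DNA during replication and repair, showed the largest fall among named genes. It read 323, 356 and 449.6 at stages 9 to 11 and 64.3, 61.4 and 61.7 at stages 13 to 15. The later arrays lay close together, and the fall was 5.10-fold (log2 difference −2.35 ± 0.19, adjusted p = 7.65e-07), with −2.12, −2.31 and −2.63 within numbers.

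Rca1, which restrains the anaphase-promoting complex so that cyclin A can accumulate, read 253, 259.9 and 354 and then 70.5, 72.8 and 64.2. The windows were far apart on every array (log2 difference −1.86 ± 0.22, adjusted p = 2.71e-05). Caf1-55, a histone-binding subunit of the chromatin assembly factor and of Polycomb complexes, read 1046, 1119.8 and 1372 and then 581, 524 and 677. The values did not overlap (−0.97 ± 0.22 in log2, adjusted p = 0.00377).

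Outside the list, RfC4, a subunit of the clamp loader that places PCNA on DNA, read 325, 309 and 304 and then 103, 57.3 and 109. It differed by −1.70 ± 0.23 in log2 (adjusted p = 7.63e-05). PolZ1, the catalytic subunit of the lesion-bypass DNA polymerase zeta, read 88.7, 66.8 and 67.9 and then 15.3, 29.5 and 31.3. Those values did not overlap, but the difference of −1.20 ± 0.42 (SE, adjusted p = 0.0525) stood just outside the threshold. It passed in 5 of 16 alternatives, the replicate block among them. Skp2, an F-box protein of cell cycle protein turnover, differed by −0.53 and did not pass (adjusted p = 0.238). It passed in 1 of 16 alternatives, the replicate block (adjusted p = 0.0156). No gene of the list of DNA damage checkpoint and repair was tested by name.

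The segment polarity gene en (153867_AT), engrailed, which marks the posterior compartment of each segment, is the 1 tested member of 24 in the early patterning list. It read 186, 217 and 282 at stages 9 to 11 and 105, 121 and 61.5 at stages 13 to 15, so the windows did not overlap. The later minus the earlier value was −1.17 ± 0.25 in log2 (adjusted p = 0.00278), and −0.75, −0.77 and −1.98 within the numbers. The directions of en and betaTub60D go with the stage labels, though the checks were set with earlier results of these data known. No irradiated array stood in the other window's range for either. Both belong to the leading genes, chosen for windows without overlap, so that is no further check of the labels.

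A receptor and an adaptor of signalling were among the leading falls. dome, the receptor of the JAK/STAT pathway, read 487, 472 and 679 and then 305, 266 and 233 (−0.98 ± 0.19 in log2, adjusted p = 0.00140). dos, an adaptor in receptor tyrosine kinase signalling, read 72.1, 101 and 124 and then 27.1, 31.3 and 43.5 (log2 difference −1.23 ± 0.36, adjusted p = 0.0207). Its call ended in 5 settings: without earlier array 2 or 3, without later array 1 or 2 and without the arrays numbered 3 (adjusted p 0.0567 to 0.0974). In the list of signalling kinases and scaffolds, 5 of 33 genes were tested, with 1 higher (Strn-Mlck), 1 lower (dos) and 3 not past the threshold, and a median of −0.54. Mkk4, a kinase of the JNK pathway, differed by −0.66 (adjusted p = 0.0877), POSH, a JNK scaffold and the tested gene of the apoptosis list, by −0.54 (0.435, but −1.16 and 0.0256 without earlier array 2) and Gprk2, a G protein-coupled receptor kinase, by −0.48 (0.422).

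Sps1, a homologue of selenophosphate synthetase, also fell. It read 1529, 1580.3 and 1511 and then 626, 586 and 460.0 (−1.46 ± 0.16 in log2, adjusted p = 1.09e-05). CG3036 fell by 2.17 ± 0.21 (SE, adjusted p = 3.01e-06), from 395, 415 and 392 to 94.5, 61.9 and 82.8. CG18853 fell by 1.63 ± 0.25 (SE, adjusted p = 2.11e-04), and Nmt, N-myristoyltransferase, by 1.17 ± 0.18 (SE, adjusted p = 1.99e-04). Each of these had 1 sign within all 3 numbers, as did the other leading genes. Leading genes were chosen for windows without overlap, which forces 1 sign, so the shared sign is no further support.

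**Figure D3:**
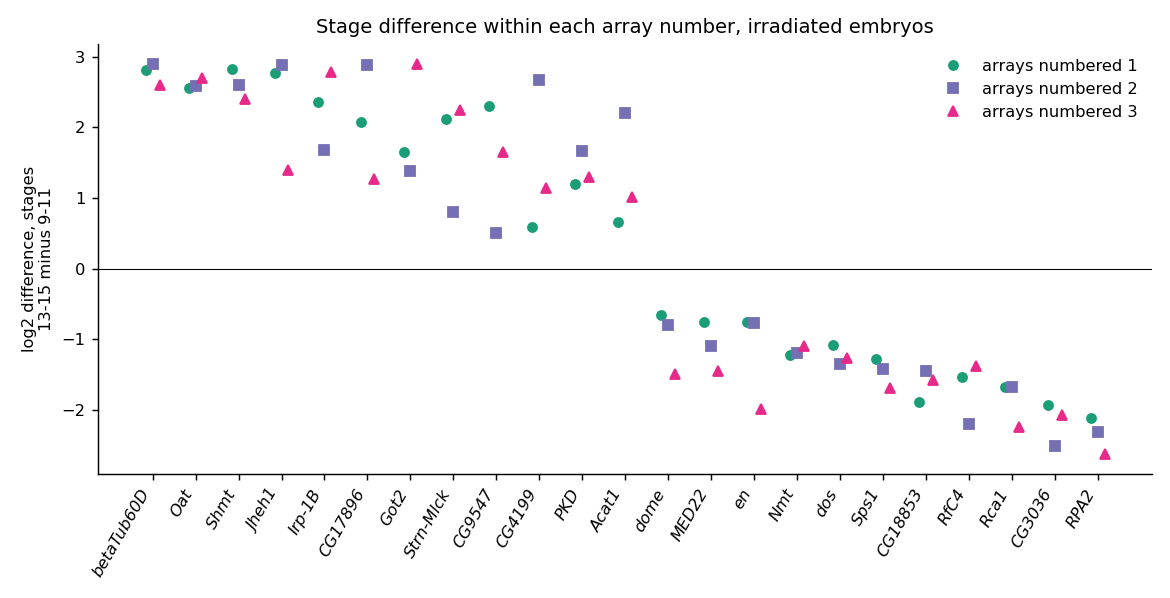
Log2 stage difference (stages 13 to 15 minus 9 to 11) within each array number for 23 of the 24 leading named genes, in order of their mean difference. Each marker is 1 irradiated array of the later window minus the irradiated array of the earlier window with the same number. All 3 markers lie on 1 side of zero for each of the 23 genes, which the choice of genes without overlap fixes.

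Among genes of transcription and RNA processing, several fell and others did not pass. In the transcription machinery list, 1 of 3 tested genes of 40 fell: Polr2C, a subunit of RNA polymerase II, read 193, 243 and 176 and then 129, 97.7 and 90.7 (log2 difference −0.87 ± 0.21, adjusted p = 0.00683). TfIIFalpha, a general factor of that polymerase, differed by −0.67 (adjusted p = 0.0613). It passed in 4 of 16 alternatives, the replicate block among them (adjusted p 0.0177 to 0.0449 over the 4). stc, a zinc finger gene related to NFX1, differed by −0.14 (adjusted p = 0.639). The list median was −0.67.

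MED22, a Mediator subunit outside the list, read 364, 377 and 376 and then 211, 169 and 129.9 (−1.10 ± 0.19 in log2, adjusted p = 4.43e-04). CycH, the cyclin of the TFIIH kinase, had an adjusted p of 0.0309 with a difference of −0.94 ± 0.30 (SE), but its arrays numbered 2 read 129 and 131, so its windows overlapped. Its call ended in 6 of 16 alternatives (adjusted p 0.0539 to 0.272). Of other genes of this kind, the TFIIH subunit gene mrn fell by 0.69 ± 0.24 (SE, adjusted p = 0.0468), a call that ended in 9 of 16 alternatives (adjusted p 0.0598 to 0.119), each omission of 1 irradiated array among them. The splicing factor gene SF2 fell by 0.74 ± 0.17 (SE, adjusted p = 0.00533), and the elongation factor gene spt4 differed by −0.80 (adjusted p = 0.0864, or 0.0231 without earlier array 1). Bin1, a subunit of histone deacetylase complexes, fell by 0.77 ± 0.25 (SE, adjusted p = 0.0332), a call that ended in 6 of 16 alternatives (adjusted p 0.0570 to 0.175).

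In the list of the ribosome and ribosomal RNA synthesis, 1 of 3 tested genes of 30 fell and 2 did not pass, with a median of 0.18. Polr1A, part of the polymerase that makes ribosomal RNA, read 343, 344 and 492 and then 235, 182 and 250.4 (log2 difference −0.78 ± 0.20, adjusted p = 0.00850). RpL32, of the large ribosomal subunit, differed by 0.25 with a 95% confidence interval of −0.47 to 0.97. Its arrays numbered 3 read 7969 and 7146, below all the others, and without them the difference was 0.45 (adjusted p = 0.00983).

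The mitochondrial ribosomal gene mRpS16 differed by 0.18 (interval −0.26 to 0.62). Outside the list, RpL23A differed by 0.09 (interval −0.38 to 0.55) and RpS5b, a paralogue of a small-subunit protein, by −0.85 (interval −1.57 to −0.12, adjusted p = 0.0867). RpS5b read 12290 and 13477 on earlier arrays 1 and 2 but 7196 on array 3, close to the 6852 and 7068 of later arrays 1 and 2. It passed in 4 of 16 alternatives, quantile normalization (adjusted p = 0.00586) and the replicate block among them. Among genes of translation, eIF3d1, an initiation factor subunit, fell by 0.80 ± 0.22 (SE, adjusted p = 0.0153). The call of eIF3d1 ended without earlier array 1 or 2 or later array 3 (adjusted p 0.0535 to 0.0698). eEF1beta, an elongation factor, differed by −0.23 (interval −0.69 to 0.23) and passed in 1 of 16 alternatives.

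None of the 5 tested proteasome genes, of 31 listed, passed in the main fit, while all had negative differences, with a median of −0.31. With the replicate block, 1 of 16 alternatives, Rpn7, Prosbeta7 and Prosalpha5 passed as lower (adjusted p 0.0111, 0.0446 and 0.0478). The core subunit genes Prosalpha2, Prosalpha5, Prosalpha6 and Prosbeta7 differed by −0.31, −0.44, −0.18 and −0.30. Rpn7, of the regulatory lid, read 515, 584 and 473 and then 379.9, 404 and 338, without overlap (log2 difference −0.47 ± 0.18, adjusted p = 0.0727). The 2 tested genes of central carbon and energy metabolism, of 44, did not pass: VhaSFD, a subunit of the vacuolar proton pump, differed by 0.63 ± 0.23 (SE, adjusted p = 0.0601) and Pepck1, of gluconeogenesis, by −0.72 ± 0.31 (adjusted p = 0.116). VhaSFD passed in 5 of 16 alternatives and Pepck1 in 2, the replicate block among them for both. Pepck1 also passed with the arrays numbered 3 left out (adjusted p = 0.0307). The citric acid cycle genes Ogdh and ScsbetaG, outside that list, differed by 0.53 (interval 0.03 to 1.03, adjusted p = 0.125) and 0.05 (interval −0.28 to 0.38). Ogdh passed in 1 of 16 alternatives, the replicate block (adjusted p = 0.0434).

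The 3 tested immune genes, of 22, did not pass either. DptB, DptA and Dro, which encode antimicrobial peptides, differed by 0.06, 0.32 and −0.18, with 95% confidence intervals of −0.57 to 0.70, −0.80 to 1.45 and −1.41 to 1.06. DptA lay below the filter value on 4 of its 6 irradiated arrays, so its interval says little. ninaE, an opsin and the tested gene of the nervous system list, differed by −0.39 (adjusted p = 0.501). The marker lists of haemocytes, of epidermis and trachea, of amnioserosa and of germ cells had no tested gene, so the share of those cells was not analysed here.

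**Figure D4:**
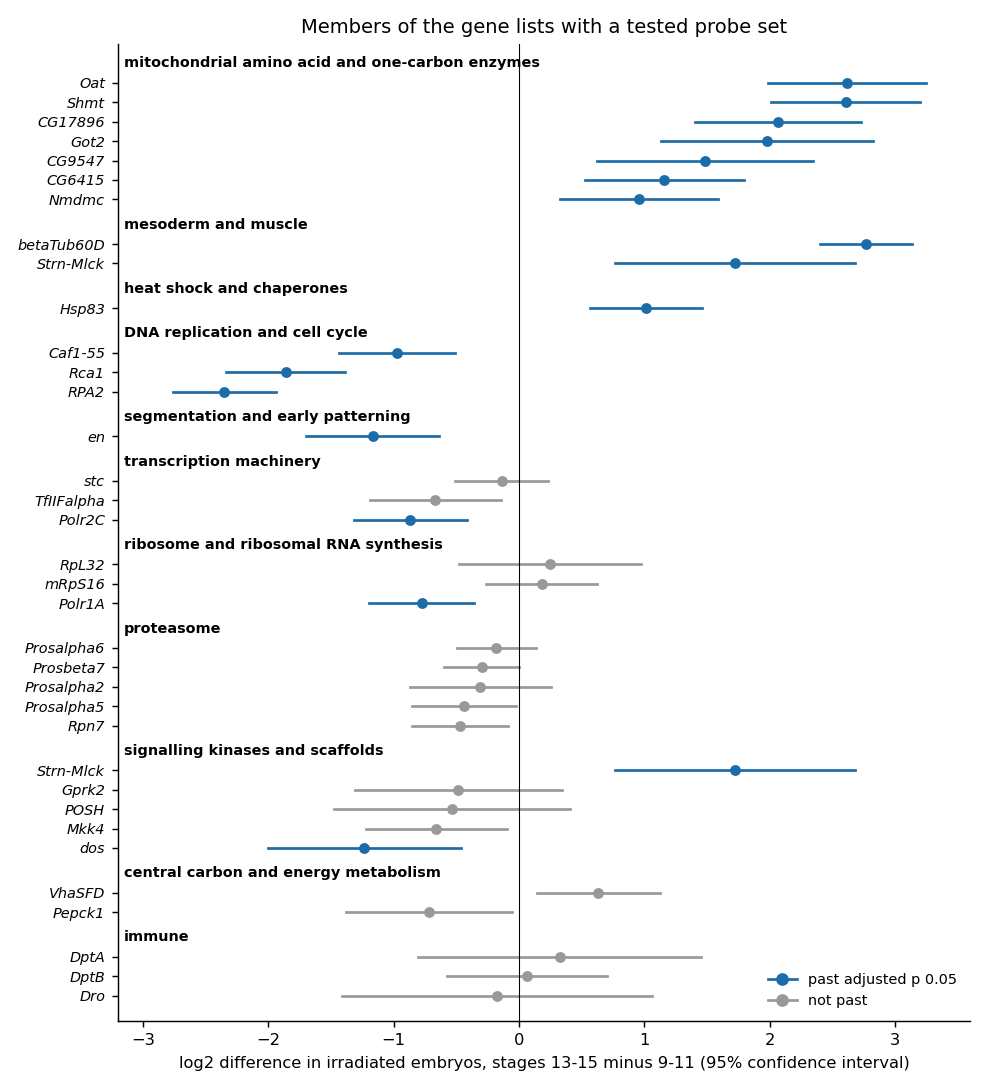
Log2 stage difference in irradiated embryos with its 95% confidence interval for the tested members of 11 gene lists (points and bars). Blue marks an adjusted p under 0.05. All 7 mitochondrial amino acid and one-carbon genes lie right of zero, the 3 replication and cell cycle genes lie left of it, and no proteasome gene is blue.

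The stage difference was then set beside that of control embryos, on 6 other arrays. There, 2719 probe sets (26.8%) passed. Both comparisons passed in 1 direction for 1834 probe sets, 76.7% of those called in irradiated and 67.5% of those called in control embryos. Of the 2390 called after X-rays, 2346 (98.2%) had the same sign in controls. The spread of each probe set was estimated once for both differences. As a description over probe sets, which are no replicates, Pearson r was 0.821 and Spearman rho 0.733.

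Calls found in irradiated embryos alone numbered 555. Of these, 512 had the same sign in controls and 221 an unadjusted p under 0.05 there with that sign. The test that a difference is particular to irradiated embryos, the irradiated minus the control stage difference, passed for 2 of the 555. It passed for those 2 of 10139 probe sets in all (0.0197%), with 460 (4.54%) at an unadjusted p under 0.05.

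Named genes followed that pattern. Of 109 tested, 39 passed in both comparisons with 1 direction, 6 passed in irradiated embryos only, 12 in controls only and 52 in neither. The 6 were Lsd-2, Pfas, Polr1A, Bin1, CG4199 and CG12116. Lsd-2 differed by 1.06 after X-rays and by 0.32 in controls, a difference of 0.74 ± 0.37 (SE, unadjusted p = 0.0616, adjusted p = 0.995). For Polr1A the differences were −0.78 and −0.23 (unadjusted p = 0.0682 and adjusted p = 0.995 for their difference). CG12116 differed by 1.27 ± 0.43 (SE, adjusted p = 0.0450), but earlier array 1 (50.9) was above later array 1 (35.7), and the call ended in 10 of 16 alternatives. For the other 3 the difference between the comparisons had an unadjusted p of 0.212 to 0.542.

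The 12 found in controls only included the proteasome genes Prosalpha5 (−0.91 in controls and −0.44 after X-rays), Prosalpha6 (−0.62 and −0.18) and Prosbeta7 (−0.60 and −0.30). Prosalpha5 and Prosbeta7 also passed after X-rays with the replicate block, so their place among the controls-only calls holds for the main fit. The differences of the 3 genes between the comparisons were 0.47, 0.43 and 0.30, with unadjusted p of 0.112, 0.0566 and 0.153. Rtnl1, a reticulon of the endoplasmic reticulum, read 56.9, 33.5 and 132 at stages 9 to 11 and 91.6, 107 and 125 at stages 13 to 15 after X-rays. Those windows overlapped (log2 difference 0.62 ± 0.46, adjusted p = 0.377), against −1.46 in controls.

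For 4 named genes the difference between the comparisons had an unadjusted p under 0.05, and for 0 an adjusted p under 0.05 in limma. Rtnl1 had 2.08 ± 0.65 (SE, unadjusted p = 0.00592) and VhaSFD 0.77 ± 0.33 (unadjusted p = 0.0321). On the other side, the rise of CG6415 was smaller after X-rays (1.16 against 2.50, unadjusted p = 0.00601). The fall of en was also smaller after X-rays (−1.17 against −1.98, unadjusted p = 0.0364). The adjusted p was 0.995 for each of the 4.

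**Figure D5:**
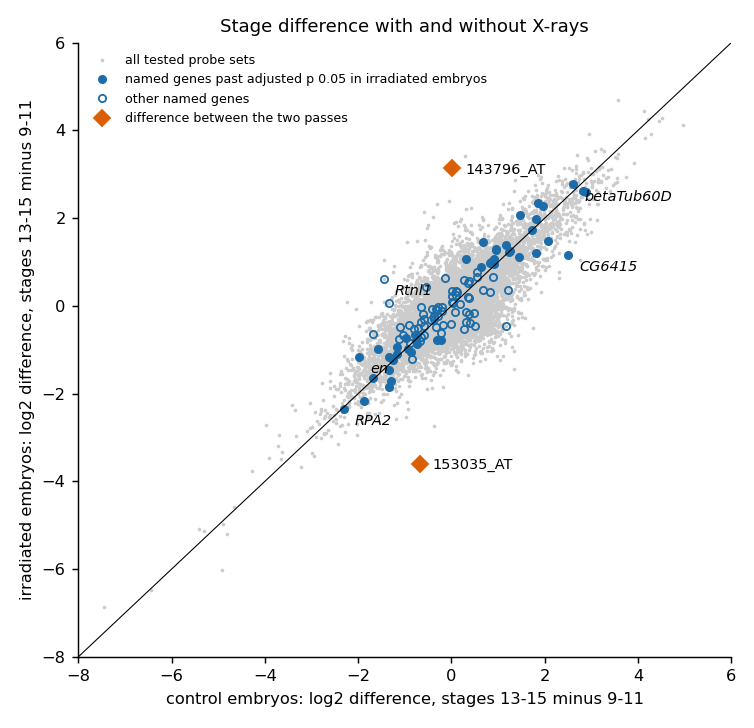
Log2 stage difference (stages 13 to 15 minus 9 to 11) in irradiated embryos (y axis) against that in control embryos (x axis) for all tested probe sets (grey) and named genes (blue, filled where past the adjusted threshold after X-rays). The line marks equal differences, and the 2 orange diamonds are the probe sets for which the difference between the comparisons passed.

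The files pair the remaining 13833 gene probe sets with no name, and a few are given by identifier. The largest statistic among unnamed rises belonged to 152879_AT, which read 127, 100 and 119 and then 919, 849.7 and 967 (log2 difference 2.85 ± 0.17, adjusted p = 5.89e-08, and 3.20 in controls). Among falls it belonged to 149763_AT, which read 6714, 6802 and 4597 at stages 9 to 11 and 72.7, 50.2 and 40.9 at stages 13 to 15. It went from one of the bright signals to a weak one, −6.48 ± 0.26 apart in log2 (adjusted p = 1.01e-09), beside −6.45 in controls.

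153035_AT and 143796_AT were the pair that passed the test of the difference between the comparisons. The first read 615, 608 and 729.6 at stages 9 to 11 and 30.2, 30.0 and 72.7 at stages 13 to 15 after X-rays. Every later value was far below every earlier one, a fall of 12.1-fold (log2 difference −3.60 ± 0.27, adjusted p = 3.85e-07), against −0.67 in controls. Its controls read 138.9, 152.5 and 174.2 and then 98.9, 115.9 and 67.5. At stages 9 to 11 every irradiated value was above every control value, while at stages 13 to 15 the 2 sets overlapped. The second read 24, 22.5 and 13.5 and then 304, 312 and 221, a rise of 3.13 ± 0.33 (log2, SE, adjusted p = 9.63e-06), against 0.02 in controls. Its controls read 231.8, 234.5 and 84.0 and then 170.7, 224.8 and 128.1. At stages 9 to 11 every irradiated value was below every control value, while at stages 13 to 15 they overlapped. The earlier irradiated values of 143796_AT were below the filter value, so the size of its rise depends on weak signal: it was 2.17 with 4 times the pseudocount. The stage difference of both after X-rays passed in all 16 alternatives. The call for the difference between the comparisons was less firm: it ended in 10 of 21 alternatives for 153035_AT (adjusted p up to 0.121) and in 16 of 21 for 143796_AT (adjusted p up to 0.221).

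In 1 case the comparisons passed in opposite directions. 148549_AT, singled out after its values were seen, read 55.3, 85.1 and 49.7 and then 11.3, 20.9 and 12.4 after X-rays (log2 difference −1.43 ± 0.39, adjusted p = 0.0144). In controls it read 11.0, 6.0 and 10.3 and then 83.4, 26.9 and 32.6 (1.34 ± 0.39, adjusted p = 0.0192). Its difference between the comparisons was −2.77 ± 0.56 (SE, adjusted p = 0.299) and did not pass.

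Few probe sets went from weak to clear signal on every array. After X-rays, 21 lay at or below the filter value of 29.9 on all 3 arrays of stages 9 to 11 and at or above 119.6 on all 3 of stages 13 to 15, and 13 showed the reverse. In controls the numbers were 26 and 14. Those that met the limits in both were 6 of the rising ones (28.6% of the irradiated and 23.1% of the control list) and 6 of the falling ones (46.2% and 42.9%). No named gene met them.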

How the data were processed

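The deposited values are intensities on a linear scale for 14010 probe sets, and 44 array controls were left out. Which software scaled them is not stated in the labels. Means trimmed by 2% at each end differ by 0.0023% between arrays, so no scaling was added. Names came from synonyms in RefSeq (assembly Release 6 plus ISO1 MT). Sequences were not used here.

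Tested were probe sets that exceeded 29.9, the 40th percentile, on 3 or more of 12 arrays, as log2(intensity + 13.3), the 25th percentile being the pseudocount. limma 3.58.1 in R 4.3.3 fitted a mean for each of 4 groups (degrees of freedom 8 residual, 7.26 prior; eBayes with trend) with Benjamini-Hochberg adjustment at 0.05. Tests were 2-sided. The number of arrays limits precision: the median half-width of a 95% interval was 0.725. An exact test of 3 against 3 arrays cannot go below 0.1.

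On simulated data for the irradiated stage difference (10139 probe sets), the code recovered 4% of changes at 1.5-fold and 40% at 2-fold, then 82% at 4-fold and 100% at 8-fold, with 9 false calls. The simulation changed 50 probe sets at each fold, with independent noise and no effect of array number. Far more probe sets (2390) passed in the data, so these shares check the code and do not give the power here. Groups and replicate numbers came from titles. Named are the 12 largest rises and 12 largest falls that passed without overlap, members of 20 gene lists, genes passing in 1 of the comparisons, and 4 unnamed probe sets. A gene among the 12 falls is counted but not reported here. Other named genes and 148549_AT were added after their values were seen. Comparison, lists and rules were chosen with earlier results of these data known.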

Additional observations from a re-analysis of the deposited data

Results flagged for a closer look

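For 143796_AT and 153035_AT the stage difference itself differed between irradiated and control embryos, by the test of that difference in limma. It was 3.11 ± 0.47 on the log2 scale for 143796_AT (SE, adjusted p = 0.0380) and −2.93 ± 0.38 for 153035_AT (adjusted p = 0.0123). The sign of each held in all 21 alternatives, with ranges of 2.17 to 3.58 and −3.45 to −2.36. The adjusted p ran from 0.00102 to 0.221 for 143796_AT, whose call ended in 16 of them, and from 6.3e-04 to 0.121 for 153035_AT, whose call ended in 10. Their stage difference after X-rays alone ran from 2.17 to 3.61 and from −3.93 to −2.88. No group had the 4 or more samples needed to look for single outlying arrays.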

How the results depend on the processing

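The count of 2390 probe sets for the stage difference in irradiated embryos was 1865 to 2881 under 16 alternatives, with the lowest without the arrays numbered 3 and the highest with the replicate block. Leaving out 1 irradiated array gave 1895 to 2118. The count past 2-fold fell from 1688 to 1013 with 4 times the pseudocount, which shrinks folds by construction. The 2 probe sets that differed between irradiated and control stage differences became 1 with quantile normalization, 4 times the pseudocount, no filter or a stricter filter, 0 without the trend in the moderation, and 12 without the arrays numbered 3. Leaving out 1 array gave 0 to 3, with 0 for every array numbered 1 or 2. The cause was not tested. Of the 45 named calls, 30 held in every alternative, and of the 24 leading genes 19 did. Among the 64 named probe sets that did not pass, 20 genes passed in at least 1 alternative, and the sign changed in 46 of 976 refits that stayed outside the threshold. Same-numbered irradiated arrays of the windows deviated from their group means with correlations of 0.0387, 0.0776 and 0.210, and those of 1 window with and without X-rays at 0.176, 0.130 and 0.421 (stages 9 to 11) and 0.0998, 0.117 and 0.435 (stages 13 to 15). Across the windows, irradiated arrays numbered 1 and 2 correlated at 0.066 and 0.0384 with each other, and at −0.134 to −0.072 with those numbered 3. Not every same-numbered pair exceeded 0.1, and the main fit had no term for the replicate number, which entered as a block in 1 alternative. The main fit thus leaves differences between the numbers in its spread, and some probe sets outside its threshold passed once the numbers were fitted. The replicate block gave 2881 calls and, for the difference between the comparisons, 2. With it no named call was lost, and Rpn7, Ogdh, RpS5b, Pepck1, VhaSFD, bai, Skp2, pic, Prosbeta7, TfIIFalpha, Prosalpha5 and PolZ1 passed for the irradiated stage difference (adjusted p 2.72e-05 to 0.0478). Weak signal limits the dimmest of 4 equal groups of probe sets, where 6.07% passed.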
